A study of Mus musculus with 6 samples.

Results

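The genes described here are 33 genes of the PI3K, AKT and mTORC1 signalling pathway, taken by symbol from a table of 31918 genes, in which each of the 33 symbols matched 1 row. The symbols, and not a threshold on values, define the set, but it was drawn up with earlier results of these data known. RNA was sequenced from testis spermatogonia of Id4-eGfp (LT11) mice at postnatal day 8. Bright cells, with bright ID4-GFP fluorescence and a high level of Id4, and Dim cells, with dim fluorescence and a low level, gave 3 libraries each. All 6 libraries carried the Id4-eGfp (LT11) genotype, and the labels give no other allele and no treatment. Whether each library came from its own pup or from a pool is not stated, so p-values here reflect the spread between libraries, which may be technical.

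PI3K is a lipid kinase that is recruited to active receptors and makes the membrane lipid PIP3, which brings the kinase AKT to the membrane, where PDK1 activates it. AKT inactivates the TSC complex, which frees the small GTPase RHEB to activate mTORC1, a kinase complex that promotes protein synthesis through S6 kinases and the 4E-BP proteins. In mouse spermatogonial stem cells, GDNF signalling through RET activates PI3K and AKT, and mTORC1 activity is linked to the step from self-renewal towards differentiation.

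Values are FPKM, fragments per kilobase of transcript scaled to the fragments mapped in the library, as the authors deposited them. Levels of different genes are set side by side on this scale for length. Other differences in coverage between genes were not tested. Steps in the values of low genes with 1 transcript put 1 read per kilobase at 0.0285 to 0.0460 FPKM, or roughly 21700000 to 35000000 reads per library. Id4 measured 28.5, 42.7 and 39.7 FPKM across the Bright libraries and 3.75, 4.71 and 5.39 across the Dim libraries. The 6 germ cell markers summed to between 1126 and 1511 FPKM in each library. Markers of other testis cells stood out in the third Bright library, Bright 3. Its 6 Leydig markers summed to 1747 against 1.65 to 2.56 FPKM in the other 5 libraries, its 7 Sertoli markers to 117.6 against 5.03 to 12.7 FPKM and its 6 myoid markers to 82.9 against 3.77 to 5.96 FPKM. The 8 macrophage markers summed to 147.1 FPKM in Bright 3, 55.0 in Dim 1 and 62.7 in Dim 2, and to 2.70 to 3.47 in the other 3. Other marker sums separated the groups. The 7 markers of undifferentiated spermatogonia summed to 496.2 to 555.4 FPKM over the Bright libraries against 112.6 to 144.4 over the Dim libraries, and the 6 of differentiating spermatogonia to 279.5 to 338.6 FPKM over the Bright libraries against 601.4 to 712.8 over the Dim libraries. The 6 endothelial markers summed to 7.02 to 22.8 FPKM over the Bright libraries against 2.89 to 3.13 over the Dim libraries. The 6 stromal markers summed to 32.7 to 202.1 FPKM over the Bright libraries against 24.7 to 27.2 over the Dim libraries. Both sums were higher in each Bright library than in any Dim library. Among the stromal markers, however, Col1a2, Col3a1, Dcn and Lum were lower in Bright 1 and Bright 2 than in Dim 1 and Dim 2. Pdgfra was higher in each Bright library than in any Dim library, and Col1a1 in Bright 1 and Bright 2. Dcn measured 151.2 FPKM in Bright 3. None of these markers was at 0 in all libraries, and the part of these cell states and types in the members' differences was not tested.

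With group as the only term, most members did not differ past the threshold, and those that did went in both directions. The AKT coactivator Tcl1, the adaptor Irs2, the PI3K catalytic subunits Pik3ca and Pik3cd, the lipid phosphatase Inppl1 and the S6 kinase Rps6kb2 were higher in Bright. The kinase Akt1, the GTPase Rheb and the AKT phosphatase Phlpp1 were higher in Dim. A gene was tested where at least 3 of the 6 libraries reached 1 FPKM, and called at an adjusted p under 0.05 in limma over all 13416 genes tested. Of the 29 members tested, 9 (31.0%) were called, beside 22.5% of all genes tested. The 6 higher in Bright were 20.7% of the members tested, beside 12% of all genes, and the 3 higher in Dim were 10.3%, beside 10.5% of all genes. The remaining 20 did not pass, and 4 more members were too low to test. The median log2 fold change, taken as Bright minus Dim on log2(FPKM + 1), was 0.02 over the members and -0.03 over all genes tested. In 12 of the 29 members Bright and Dim values did not overlap, beside 41.1% of all genes tested. Bright was the higher group in 8 of these and Dim in 4, beside 20.4% and 20.8% of all genes. In these bulk libraries fewer cells of a kind and less RNA per cell cannot be told apart.

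**Figure D1:**
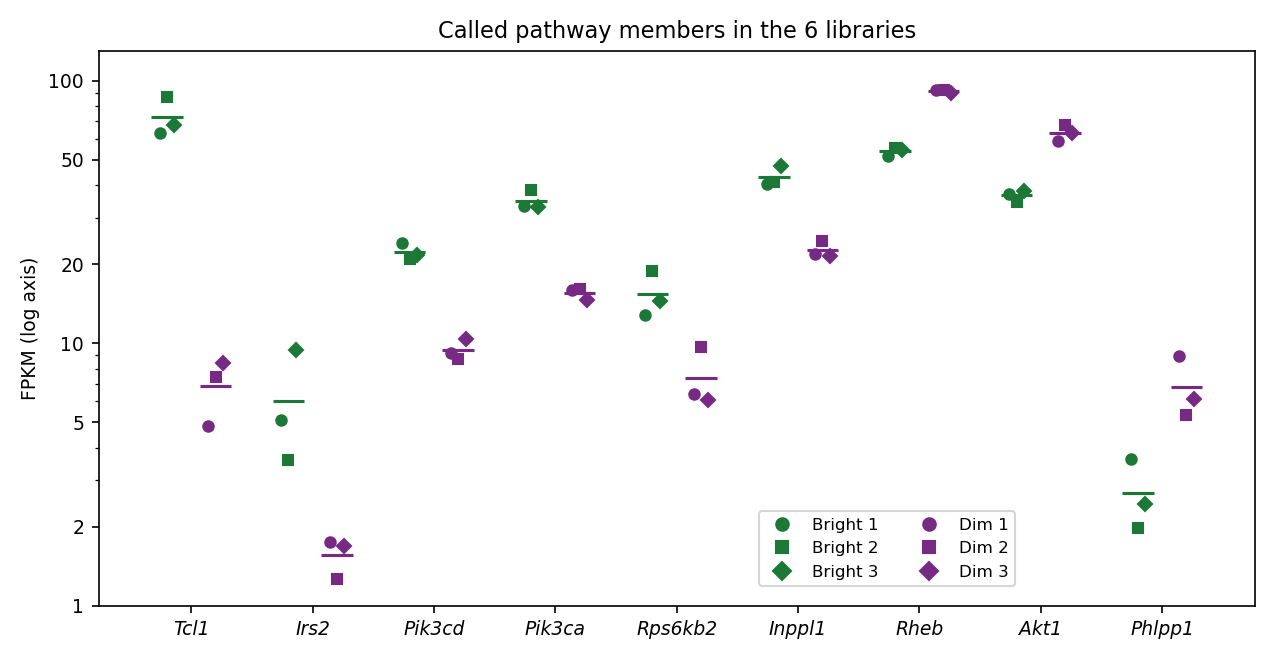
FPKM on a log axis of the 9 called members in each library, with circles, squares and diamonds for libraries 1, 2 and 3 of each group and a bar at the group mean. In every gene shown the 3 Bright points (green) lie apart from the 3 Dim points (purple), and the widest gap is that of Tcl1.

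**Figure D2:**
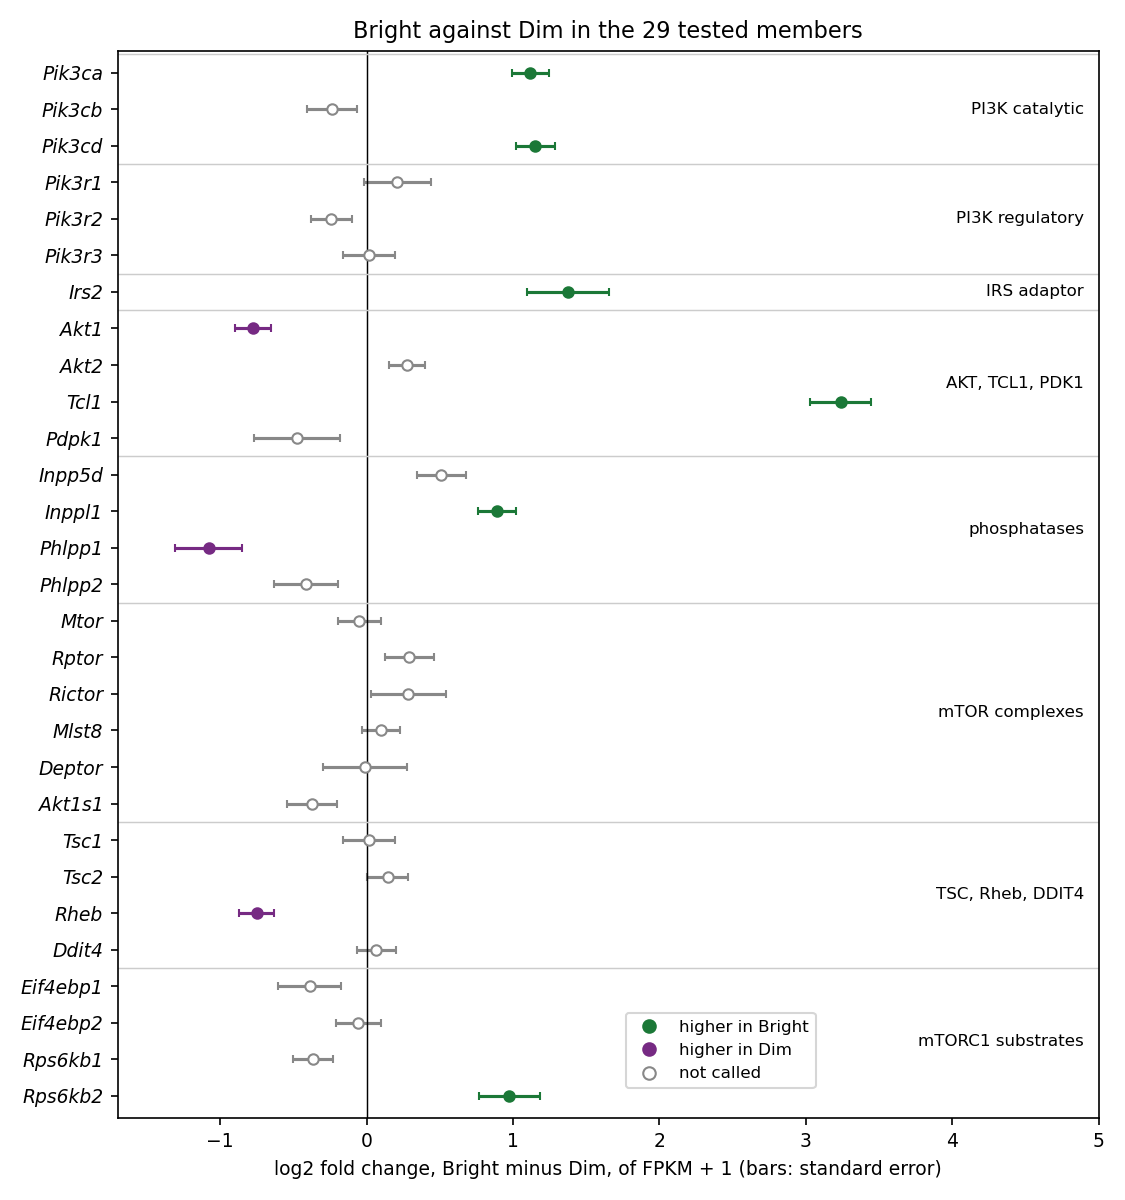
Log2 fold change, Bright minus Dim, of FPKM + 1 for the 29 tested members by role, with the standard error as bars. Filled points are called. The 6 subunits of the mTOR complexes all lie between -0.37 and 0.29. With group as the only term none of them was called, beside 22.5% of all genes tested.

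Irs2, the adaptor at the top of the pathway, was higher in Bright, and its paralog was near the lowest level measured. Irs2, which docks active insulin and IGF receptors to PI3K, measured 5.08, 3.60 and 9.42 FPKM across the Bright libraries and 1.75, 1.26 and 1.68 across the Dim libraries. Every Bright library was above every Dim library, and Bright 3, where the markers of other cells stood out, was the highest. The log2 fold change was 1.38 ± 0.28 SE (adjusted p = 0.00965), and it was 1.05 without Bright 3 (adjusted p = 0.0119). Irs1 did not reach 1 FPKM in any library and was not tested. It measured 0.211, 0.0967 and 0.417 FPKM across the Bright libraries and 0.0771, 0.0130 and 0.0363 across the Dim libraries, levels that rest on few reads, and in GENCODE M21 its exons share up to 2822 bases with the gene model Gm9747.

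Of the class I catalytic subunits, p110 alpha and p110 delta were 2.25-fold and 2.35-fold higher in Bright by the ratio of means, and p110 beta did not pass. Pik3ca, which encodes p110 alpha (ENSMUSG00000027665, chromosome 3, 32397671 to 32468486 on GRCm38), measured 33.4, 38.3 and 33.1 FPKM across the Bright libraries and 15.9, 16.0 and 14.7 across the Dim libraries. The groups lay far apart, at 34.9 ± 2.95 against 15.5 ± 0.763 FPKM (SD, n = 3 each), with a log2 fold change of 1.12 ± 0.13 SE (adjusted p = 0.000776). Pik3cd, which encodes p110 delta, a subunit best known from leukocytes (ENSMUSG00000039936, chromosome 4, 149649168 to 149702571), measured 24.0, 21.0 and 21.6 FPKM across the Bright libraries and 9.21, 8.72 and 10.4 across the Dim libraries. Its log2 fold change was 1.15 ± 0.13 SE (adjusted p = 0.000844). The part of leukocytes in these values, and in those of other members, was not tested.

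Pik3cb, which encodes p110 beta, ran from 10.4 to 14.1 FPKM over the Bright libraries and from 11.9 to 16.3 over the Dim libraries, so the groups overlapped (adjusted p = 0.357). Pik3cg, the class IB subunit p110 gamma, was below 1 FPKM throughout and not tested, at 0.381, 0.373 and 0.734 FPKM across the Bright libraries and 0.329, 0.180 and 0.0952 across the Dim libraries. Summed over Pik3ca, Pik3cb and Pik3cd, the class IA catalytic subunits came to 69.0 ± 3.38 against 39.1 ± 2.44 FPKM (Bright against Dim, as in all such pairs of means). The 3 regulatory subunits, which bind active receptors and hold the catalytic subunit in check, summed to 112.1 ± 13.7 against 119.6 ± 5.87 FPKM, and each had overlapping groups. Pik3r3, which encodes p55 gamma, was at 58.2 ± 10.1 against 57.4 ± 9.63 FPKM, and Pik3r2, which encodes p85 beta, at 49.4 ± 6.16 against 58.3 ± 4.73 FPKM. Pik3r1, which encodes p85 alpha, was the least abundant of them at 4.58 ± 1.28 against 3.81 ± 1.06 FPKM. Their adjusted p lay between 0.266 and 0.955.

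The AKT branch held the widest difference of all members, and its called genes went in opposite directions. Tcl1, which binds AKT and raises its activity (ENSMUSG00000041359, chromosome 12, 105216750 to 105222793), measured 63.3, 86.7 and 68.0 FPKM across the Bright libraries and 4.82, 7.46 and 8.41 across the Dim libraries. The lowest Bright library was many times the highest Dim library. The ratio of the means was 10.5, and the log2 fold change was 3.24 ± 0.21 SE (adjusted p = 7.43e-05). Akt1, the AKT isoform tied to growth and survival (ENSMUSG00000001729, chromosome 12, 112653821 to 112674884), was lower in Bright, at 37.1, 34.6 and 37.9 FPKM across the Bright libraries and 59.1, 67.7 and 63.2 across the Dim libraries. It was 1.73-fold higher in Dim by the means, with no overlap (log2 fold change -0.78 ± 0.12 SE, adjusted p = 0.00311).

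Akt2, the isoform tied to insulin action, measured 49.5, 56.0 and 54.4 FPKM across the Bright libraries and 41.5, 45.7 and 43.9 across the Dim libraries. These groups did not overlap, but the difference did not pass (log2 fold change 0.28 ± 0.12 SE, adjusted p = 0.142). Of the summed Akt1 and Akt2 FPKM, Akt1 made up 42.8%, 38.2% and 41.1% across the Bright libraries and 58.7%, 59.7% and 59.0% across the Dim libraries. The more abundant isoform of the pair was Akt2 in each Bright library and Akt1 in each Dim library. Pdpk1, which encodes PDK1, the kinase that phosphorylates AKT at the membrane, measured 18.1, 10.2 and 14.7 FPKM across the Bright libraries and 30.8, 14.8 and 16.9 across the Dim libraries. Its groups overlapped, and Dim 1 was the highest library (adjusted p = 0.289).

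The phosphatases that oppose PI3K and AKT also went in both directions. Inppl1, which encodes SHIP2, an enzyme that removes a phosphate from PIP3, measured 40.4, 41.1 and 47.1 FPKM across the Bright libraries and 21.9, 24.5 and 21.5 across the Dim libraries. It was 1.90-fold higher in Bright by the means, with no overlap (log2 fold change 0.89 ± 0.13 SE, adjusted p = 0.00205). In GENCODE M21 its exons share up to 914 bases with the gene model Gm10602 and 95 with Phox2a, so reads there may not be its own. Inpp5d, which encodes SHIP1, an enzyme of the same kind best known from blood cells, measured 2.71, 1.85 and 2.35 FPKM across the Bright libraries and 1.60, 1.32 and 1.04 across the Dim libraries. The groups did not overlap, yet the gene missed the threshold (log2 fold change 0.51 ± 0.17 SE, adjusted p = 0.0618), and it was called without Bright 2 (adjusted p = 0.0497). Inpp4b, which acts on another lipid of the pathway, was below 1 FPKM in each library and not tested, at 0.260, 0.260 and 0.719 FPKM across the Bright libraries and 0.215, 0.0749 and 0.0803 across the Dim libraries.

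Phlpp1, a phosphatase that removes an activating phosphate from AKT itself (ENSMUSG00000044340, chromosome 1, 106171752 to 106394250), measured 3.62, 1.97 and 2.45 FPKM across the Bright libraries and 8.93, 5.32 and 6.13 across the Dim libraries. It was 2.53-fold higher in Dim by the means, and each Dim library was above each Bright library (log2 fold change -1.08 ± 0.23 SE, adjusted p = 0.0112). Its paralog Phlpp2 was the more abundant of the pair in each library, at 10.9 ± 2.55 against 15.0 ± 3.98 FPKM, and it was not called (adjusted p = 0.214). The share of Phlpp1 in their sum was 17.9% to 20.8% over the Bright libraries and 30.2% to 31.6% over the Dim libraries.

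Between AKT and mTORC1, Rheb was the tested member that was called. Rheb, the GTPase that switches on mTORC1 (ENSMUSG00000028945, chromosome 5, 24802823 to 24842624), measured 51.8, 55.6 and 54.5 FPKM across the Bright libraries and 92.0, 92.0 and 90.1 across the Dim libraries. The libraries of each group lay close together, and the groups were far apart. The log2 fold change was -0.75 ± 0.12 SE (adjusted p = 0.00313), with 1.69-fold more in Dim by the means. The TSC complex, which turns RHEB off, had overlapping groups. Tsc2, its catalytic subunit, was at 47.1 ± 6.02 against 42.4 ± 2.33 FPKM (adjusted p = 0.498), and Tsc1 at 12.4 ± 1.98 against 12.3 ± 2.37 FPKM (adjusted p = 0.956).

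Ddit4, which encodes REDD1, a stress-induced inhibitor that acts through the TSC complex, was at 29.2, 27.8 and 26.1 FPKM across the Bright libraries and 24.5, 30.1 and 25.0 across the Dim libraries, with overlapping groups (adjusted p = 0.761). Ddit4l, its paralog, was not tested, at 0.380, 0.341 and 2.49 FPKM across the Bright libraries and 0.598, 0.836 and 1.14 across the Dim libraries. Bright 3 was the highest library for Ddit4l, Irs1, Irs2, Inpp4b, Pik3cg, Deptor and Inppl1. Of these, Irs2 and Inppl1 were called, and without Bright 3 the log2 fold change of Inppl1 was 0.82 (adjusted p = 0.00787).

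The subunits of the mTOR complexes had overlapping groups in each of 6 cases. With group as the only term 0 were called by limma, with 0 at an unadjusted p under 0.05. Over all genes tested, 22.5% were called and 41.1% had groups that did not overlap, and 6 genes are few to set beside these shares. With library number added as a term (the replicate block), limma called Rictor for Bright (adjusted p = 0.0361) and Akt1s1 for Dim (adjusted p = 0.0214). In that fit 5453 of all 13416 genes tested were called. The values below are from the fit with group only. Mtor, the kinase itself, measured 51.8, 39.7 and 43.6 FPKM across the Bright libraries and 50.1, 41.7 and 47.9 across the Dim libraries, so libraries of a group differed by more than the group means did (adjusted p = 0.829). Rictor, which defines mTORC2, was at 36.2 ± 9.69 against 29.8 ± 9.31 FPKM (adjusted p = 0.470). Rptor, which defines mTORC1 and recruits its substrates, was at 17.7 ± 3.70 against 14.1 ± 1.26 FPKM (adjusted p = 0.251). Mlst8, shared by both complexes, was at 12.05 ± 0.471 against 11.2 ± 0.842 FPKM (adjusted p = 0.638). The inhibitory subunit Akt1s1, which encodes PRAS40, a target of AKT, was at 12.1 ± 1.63 against 16.0 ± 2.92 FPKM (adjusted p = 0.153). Deptor, also an inhibitor, was at 2.22 ± 1.33 against 2.11 ± 0.580 FPKM, with its highest value, 3.70, in Bright 3 (adjusted p = 0.984).

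Among the substrates of mTORC1, 1 of the 4 tested genes, the S6 kinase Rps6kb2, was called, beside 22.5% of all genes tested. Rps6kb2, which encodes S6K2 (ENSMUSG00000024830, chromosome 19, 4156713 to 4163354 as deposited), measured 12.8, 18.9 and 14.4 FPKM across the Bright libraries and 6.38, 9.70 and 6.08 across the Dim libraries. It was 2.08-fold higher in Bright by the means, with no overlap (log2 fold change 0.97 ± 0.21 SE, adjusted p = 0.0116). In GENCODE M21 its exons share up to 829 bases with Ptprcap on the opposite strand, which was at 1.14 to 1.62 FPKM over the Bright libraries and 0.185 to 0.426 over the Dim libraries. They also share up to 45 bases with Coro1b, which was at 63.2 to 79.2 FPKM over the Bright libraries and 43.7 to 54.2 over the Dim libraries. Library strand is not stated, so reads in the shared parts cannot be assigned. Rps6kb1, which encodes S6K1, measured 14.9, 14.6 and 14.5 FPKM across the Bright libraries and 21.9, 17.4 and 18.5 across the Dim libraries. Each Dim library was above each Bright library, but the gene did not pass (log2 fold change -0.37 ± 0.14 SE, adjusted p = 0.0885).

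The 4E-BP genes encode repressors of cap-dependent translation that mTORC1 switches off. Eif4ebp1 was the most abundant of the 33 members by its mean over the 6 libraries, at 63.4, 86.5 and 56.2 FPKM across the Bright libraries and 68.4, 107.5 and 95.0 across the Dim libraries. Its groups overlapped and it did not pass (adjusted p = 0.237). Eif4ebp2 was at 55.9 ± 6.83 against 58.3 ± 7.88 FPKM (adjusted p = 0.820). After Eif4ebp1 the order of mean levels was Rheb, Pik3r3, Eif4ebp2, Pik3r2 and Akt1, and 24 of the 33 members had a mean above 10 FPKM.

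**Figure D3:**
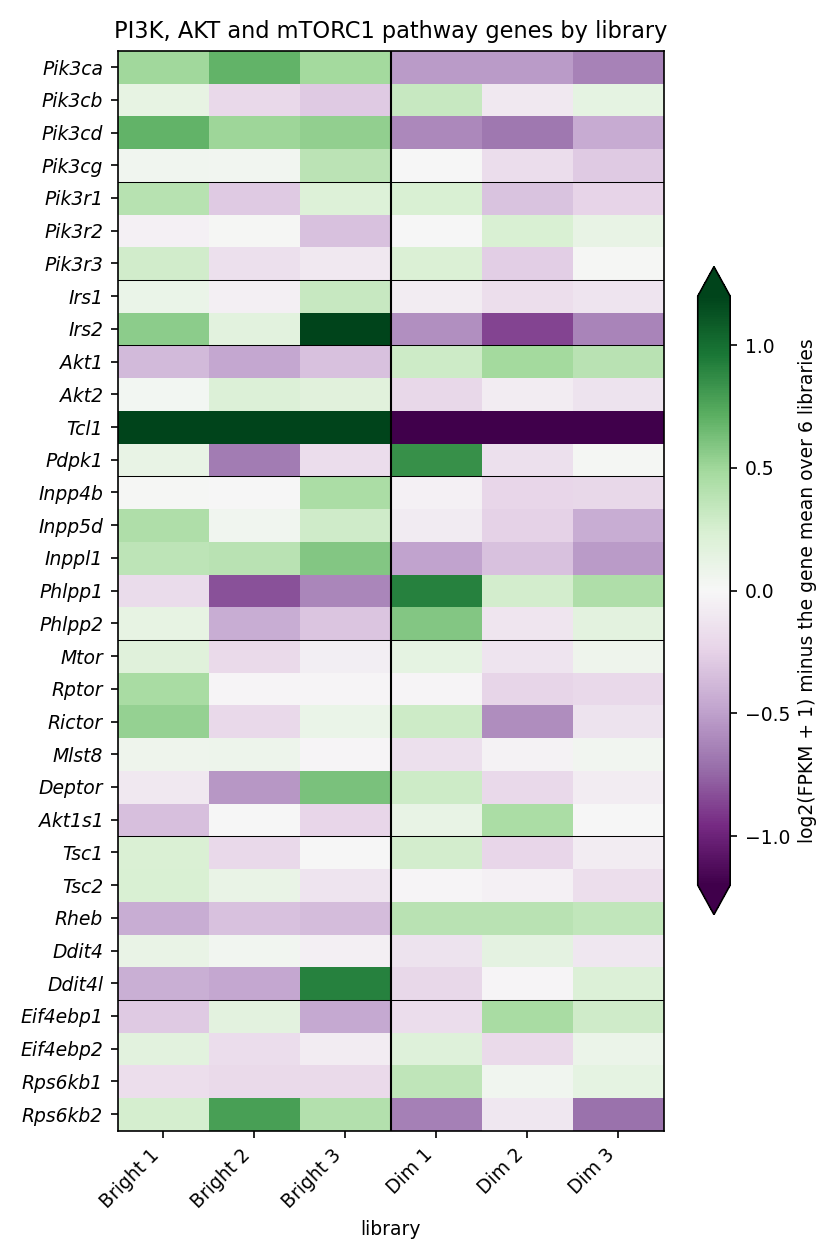
The 33 members by library, each coloured by log2(FPKM + 1) minus the gene's mean over the 6 libraries, with roles separated by lines. Tcl1, Irs2, Pik3ca, Pik3cd, Inppl1 and Rps6kb2 are higher in the 3 Bright libraries, Akt1, Rheb and Phlpp1 in the 3 Dim libraries, and Ddit4l and Irs2 are highest in Bright 3.

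The balance within families was described as the share of a gene in the summed FPKM of its paralogs or partners, for 11 families. In GENCODE M21 further genes of these families share exon bases with other genes. Among them are Tsc2 with Pkd1 (up to 693 bases) and Rps6kb1 with Rnft1 (up to 155 bases). The share of Rps6kb1 in the S6 kinases was 53.8%, 43.5% and 50.1% across the Bright libraries and 77.4%, 64.3% and 75.2% across the Dim libraries. Each Dim share was above each Bright share. The summed level of the pair was 30.0 ± 3.03 against 26.7 ± 1.90 FPKM. Pik3ca made up 46.7% to 54.5% of the class IA catalytic sum over the Bright libraries and 37.4% to 43.8% over the Dim libraries. The groups did not overlap for these families, for Akt1 and for Phlpp1, which makes 4 of the 11. Shares were not taken for families outside the pathway, and 41.1% of all single genes tested had groups without overlap. Each of the 4 families holds a member called above, so these shares are not a separate result. In each of the 4 the exact two-sided permutation test gave p = 0.1, the smallest that 20 arrangements allow, and 0.275 after Benjamini-Hochberg adjustment over the 11 families. The design cannot reach 0.05 for such a value. Among those that overlapped, the share of Tsc1 in the TSC pair was 20.8% ± 2.62 against 22.3% ± 3.03, and that of Rptor in Rptor and Rictor was 33.1% ± 2.54 against 33.0% ± 5.34.

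**Figure D4:**
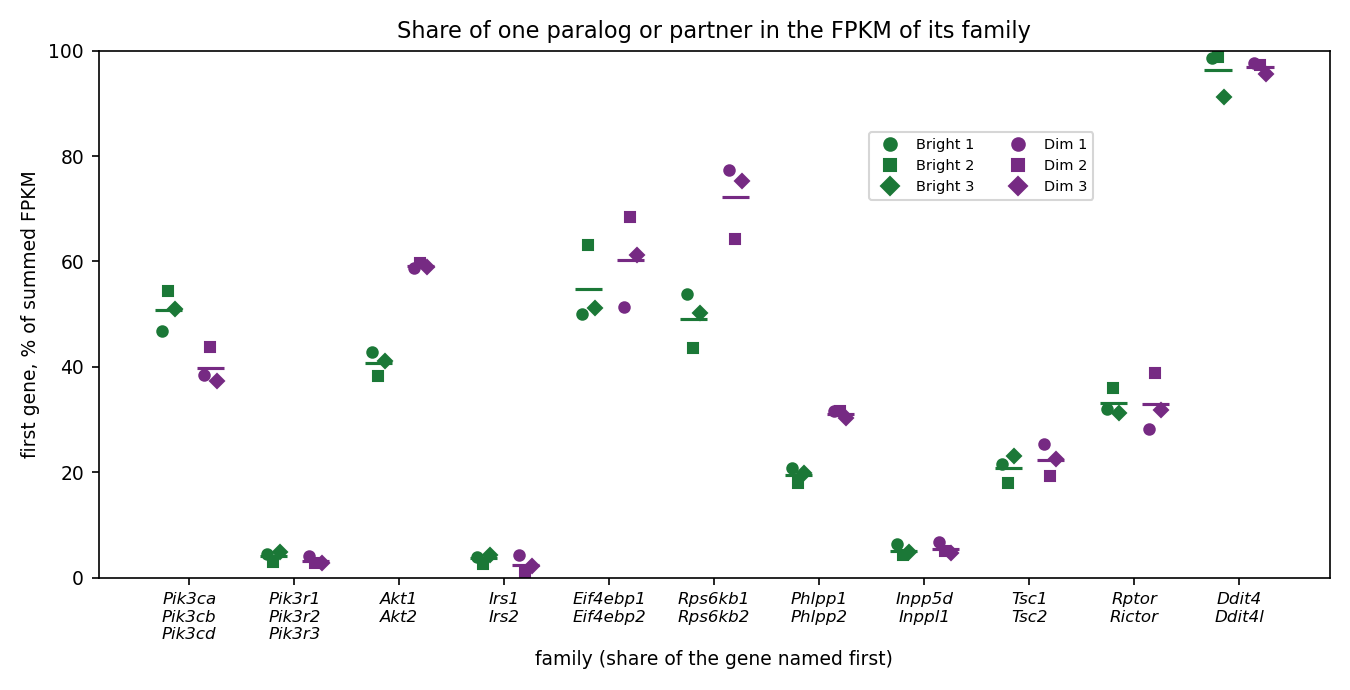
Share, in percent, of the first named gene in the summed FPKM of its family, per library, with a bar at the group mean. Bright (green) and Dim (purple) separate for Pik3ca, Akt1, Rps6kb1 and Phlpp1 and overlap for the other 7 families.

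Promoter sequences are shown for Tcl1, Pik3ca and Irs2, which were higher in Bright, and for Rheb, which was higher in Dim, because Id4 defines the groups and ID proteins are known to keep E proteins from E-boxes. Sequences are from RefSeq on GRCm38.p6, 250 bases before to 50 after the start site closest to the gene's deposited 5′ end, and 30 of the 33 members had an entry. Capitals mark the E-box form CANNTG and the ETS core CCGGAA on either strand (TTCCGG as printed when on the opposite strand). E proteins bind some sites of the form CANNTG, and a match does not tell which.
Tcl1, chr12:105222688-105222987, minus strand: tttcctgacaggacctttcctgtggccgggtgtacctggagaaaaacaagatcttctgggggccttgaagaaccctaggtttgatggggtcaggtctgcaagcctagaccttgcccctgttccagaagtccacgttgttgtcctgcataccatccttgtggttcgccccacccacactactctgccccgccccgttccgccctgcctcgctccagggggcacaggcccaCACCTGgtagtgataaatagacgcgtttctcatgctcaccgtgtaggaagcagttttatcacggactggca
Pik3ca, chr3:32396815-32397114, plus strand: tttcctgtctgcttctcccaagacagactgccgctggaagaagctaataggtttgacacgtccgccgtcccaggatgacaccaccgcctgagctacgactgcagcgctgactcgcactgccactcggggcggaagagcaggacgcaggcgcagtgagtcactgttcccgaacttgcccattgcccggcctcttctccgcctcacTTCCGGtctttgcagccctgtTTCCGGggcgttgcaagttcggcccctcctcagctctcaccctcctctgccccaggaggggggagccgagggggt
Irs2, chr8:11008880-11009179, minus strand: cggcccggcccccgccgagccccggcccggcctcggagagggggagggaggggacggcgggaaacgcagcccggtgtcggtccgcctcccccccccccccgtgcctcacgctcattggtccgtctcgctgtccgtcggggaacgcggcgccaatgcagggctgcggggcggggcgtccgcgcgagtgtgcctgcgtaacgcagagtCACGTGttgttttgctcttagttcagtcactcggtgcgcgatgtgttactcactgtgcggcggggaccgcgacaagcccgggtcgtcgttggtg
Rheb, chr5:24842312-24842611, minus strand: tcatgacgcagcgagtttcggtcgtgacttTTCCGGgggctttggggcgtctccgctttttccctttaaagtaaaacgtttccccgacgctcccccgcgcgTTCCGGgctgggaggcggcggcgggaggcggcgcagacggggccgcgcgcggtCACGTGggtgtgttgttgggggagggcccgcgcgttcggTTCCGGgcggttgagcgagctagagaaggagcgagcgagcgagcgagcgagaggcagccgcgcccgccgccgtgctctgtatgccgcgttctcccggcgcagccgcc
The window of Tcl1 held 1 E-box, whose first base lay at -21 from the start site, and 0 ETS cores. That of Pik3ca held 0 E-boxes and 2 ETS cores, at -46 and -25. Irs2 held 1 E-box at -44, and Rheb held 1 at -96 together with 3 ETS cores at -220, -149 and -57. The E-boxes of Irs2 and Rheb were both CACGTG, and that of Tcl1 was CACCTG. Which factors bind them was not tested. Of the called members not shown, Inppl1 and Phlpp1 held 0 E-boxes and 0 ETS cores. Pik3cd held 2 E-boxes and Akt1 held 1, each with 0 ETS cores, and Rps6kb2 had no entry. Over all 32851 RefSeq promoters of this length, 72.3% held CANNTG and 14.9% held CCGGAA on either strand, against 17 (56.7%) and 9 (30.0%) of the 30 members. The windows of the members were richer in G and C, with a median of 64.2% against 52.7% for all, and they held the GC box GGGCGG on either strand in 21 of 30 (70.0%) against 35.7% of all. Such matches describe letters and not bound sites.

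Other genes of the pathway were counted from 12 lists. Of 144 tested, with the 33 members left out, 25 (17.4%) passed with the higher level in Bright and 19 (13.2%) with the higher level in Dim, beside 12% and 10.5% of all genes tested. The median log2 fold change was 0.07. The first count fell to 16 without Dim 3, and the second to 12 without Bright 1 and to 11 without Dim 2 or Dim 3.

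Upstream of PI3K and among other lipid enzymes, list counts stand beside 12% of all genes called higher in Bright and 10.5% in Dim. Of 5 insulin and IGF receptor and ligand genes, 2 were called, both higher in Bright. Igf1r, the IGF1 receptor, was at 49.2 ± 7.02 against 28.2 ± 1.77 FPKM (log2 fold change 0.78 ± 0.14 SE, adjusted p = 0.00569). Insr, the insulin receptor, measured 2.06, 1.23 and 5.01 FPKM across the Bright libraries and 0.407, 0.348 and 0.381 across the Dim libraries and was again highest in Bright 3 (adjusted p = 0.0227). It no longer passed with no filter on low values (adjusted p = 0.065), or without Bright 1, Dim 1, Dim 2 or Dim 3, although its log2 fold change was 1.31 to 1.41 there, against 1.32 (adjusted p without them = 0.0526, 0.0785, 0.0816 and 0.0716). Of 12 other regulators of PI3K, 1 was higher in Bright and 3 in Dim. Grb10, an adaptor that dampens insulin and IGF signalling and is a substrate of mTORC1, was at 7.19 ± 1.81 against 24.0 ± 4.39 FPKM (adjusted p = 0.00103). Pik3ap1, an adaptor best known from B cells, was at 1.36 ± 0.479 against 4.72 ± 0.999 FPKM, and Pik3ip1, an inhibitor of PI3K, at 11.8 ± 1.42 against 6.80 ± 0.703 FPKM (adjusted p = 0.0111). Of 5 class II and III subunits, Pik3c2b was higher in Bright at 15.2 ± 3.54 against 7.27 ± 1.23 FPKM. Of 11 other phosphoinositide phosphatases, 3 were called for Bright and 1 for Dim, with Inpp4a at 6.63 ± 0.924 against 2.65 ± 0.361 FPKM and Inpp5b at 13.5 ± 1.34 against 23.2 ± 4.81 FPKM.

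Around AKT, 7 of 15 partners and related kinases were called, 4 for Bright and 3 for Dim, beside 12% and 10.5% of all genes. Phlda3, which competes with AKT for PIP3, was at 4.39 ± 0.488 against 23.7 ± 2.17 FPKM (log2 fold change -2.20 ± 0.14 SE). Sgk3, a kinase related to AKT, was at 67.3 ± 4.78 against 31.2 ± 3.80 FPKM, Phlda1 at 3.82 ± 0.312 against 0.366 ± 0.143 FPKM and Trib1, a pseudokinase, at 12.2 ± 1.83 against 5.34 ± 0.625 FPKM. Of 12 AKT substrates, 4 were higher in Bright and 1 in Dim, beside the same 12% and 10.5%. The FOXO factors, transcription factors that AKT phosphorylates, supplied 3 of the 4. Foxo3 was at 40.5 ± 4.58 against 23.4 ± 1.45 FPKM, Foxo4 at 27.6 ± 2.34 against 13.4 ± 0.606 FPKM and Foxo6 at 14.7 ± 3.09 against 4.61 ± 0.643 FPKM. Foxo1, the remaining FOXO factor of the list, named after its values were seen, was not called. It was at 34.7 ± 7.39 against 28.8 ± 3.66 FPKM, with overlapping groups (adjusted p = 0.363). Bad, the substrate called higher in Dim, also named after its values were seen, was at 8.42 ± 1.22 against 14.8 ± 3.03 FPKM (adjusted p = 0.0199). Of 14 tested genes known as FOXO targets, 7 were called higher in Bright and 1 in Dim, beside 12% and 10.5% of all genes, with a median log2 fold change of 0.56 against -0.03 over all genes. This list includes Irs2 and Insr, and its largest difference was that of Cited2, a transcriptional coregulator, at 24.7 ± 4.26 against 8.12 ± 1.27 FPKM.

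Around mTORC1, the counts of each list stand beside 12% of all genes called higher in Bright and 10.5% in Dim. In limma 0 of 8 genes of mTORC2 and its assembly passed, and 1 was at an unadjusted p under 0.05. The most abundant of them were Ruvbl1 at 97.2 ± 19.4 against 91.6 ± 11.4 FPKM and Mapkap1 at 64.5 ± 8.81 against 72.8 ± 6.84 FPKM. In the list of the third TSC subunit and AMPK, 2 of 10 were higher in Bright and 1 in Dim, and the AMPK subunits divided, with Prkab1 at 22.8 ± 1.26 against 10.8 ± 0.267 FPKM and Prkag2 at 45.8 ± 5.14 against 83.6 ± 5.68 FPKM. In the amino acid branch 3 of 27 were higher in Bright and 4 in Dim. Sesn1, an inhibitor of mTORC1, was at 19.0 ± 1.28 against 8.86 ± 0.517 FPKM, and Rragd, a Rag GTPase, at 32.1 ± 5.80 against 16.8 ± 2.24 FPKM. For Dim, Rragc was at 13.7 ± 1.75 against 20.8 ± 3.80 FPKM and Lamtor3 at 14.8 ± 1.76 against 22.1 ± 0.919 FPKM. Kptn and Mios, named after their values were seen, were also higher in Dim. Kptn was at 18.5 ± 2.33 against 26.5 ± 1.96 FPKM and Mios at 25.4 ± 3.85 against 36.1 ± 1.76 FPKM. Of 18 substrates and translation outputs, 1 passed in each direction. Eef2k, the kinase that slows translation elongation and that S6 kinase restrains, was at 20.8 ± 3.96 against 52.7 ± 3.71 FPKM (log2 fold change -1.31 ± 0.16 SE, adjusted p = 0.000881), and Tfe3, a transcription factor that mTORC1 keeps out of the nucleus, at 30.0 ± 1.85 against 19.6 ± 2.17 FPKM. Of 14 ATF4 targets that mTORC1 is known to raise, 2 were higher in Bright and 4 in Dim. Those higher in Dim were Asns, Pycr1, Psat1 and Mthfd2, enzymes of amino acid and one-carbon synthesis, with Asns at 10.7 ± 0.898 against 20.2 ± 2.65 FPKM and Psat1 at 51.2 ± 6.20 against 81.7 ± 2.05 FPKM. Those higher in Bright, named after their values were seen, were Aldh18a1 and Sesn2. Aldh18a1, an enzyme of proline synthesis, was at 22.9 ± 3.05 against 15.8 ± 1.21 FPKM. Sesn2, an inhibitor of mTORC1, was at 23.7 ± 0.757 against 17.4 ± 0.811 FPKM. The synthesis enzymes Phgdh, Shmt2 and Psph, also named after their values were seen, were not called. Phgdh was at 125.2 ± 28.1 against 82.9 ± 13.4 FPKM, with no overlap (adjusted p = 0.0717). Shmt2 was at 77.0 ± 17.4 against 69.4 ± 7.66 FPKM and Psph at 23.2 ± 3.36 against 29.1 ± 2.95 FPKM. The calls of Inpp5b and Mthfd2 were each lost under 1 alternative, at adjusted p = 0.0515 with no filter on low values and 0.0587 without Dim 3. That of Tfe3 was lost under 2, at adjusted p up to 0.0750. Grb2, Inpp5a, Inpp5f, Tbc1d4, Cab39, Rragc and Lamtor3 were called too, and each call was lost under 2 or more alternatives, at adjusted p up to 0.164.

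**Figure D5:**
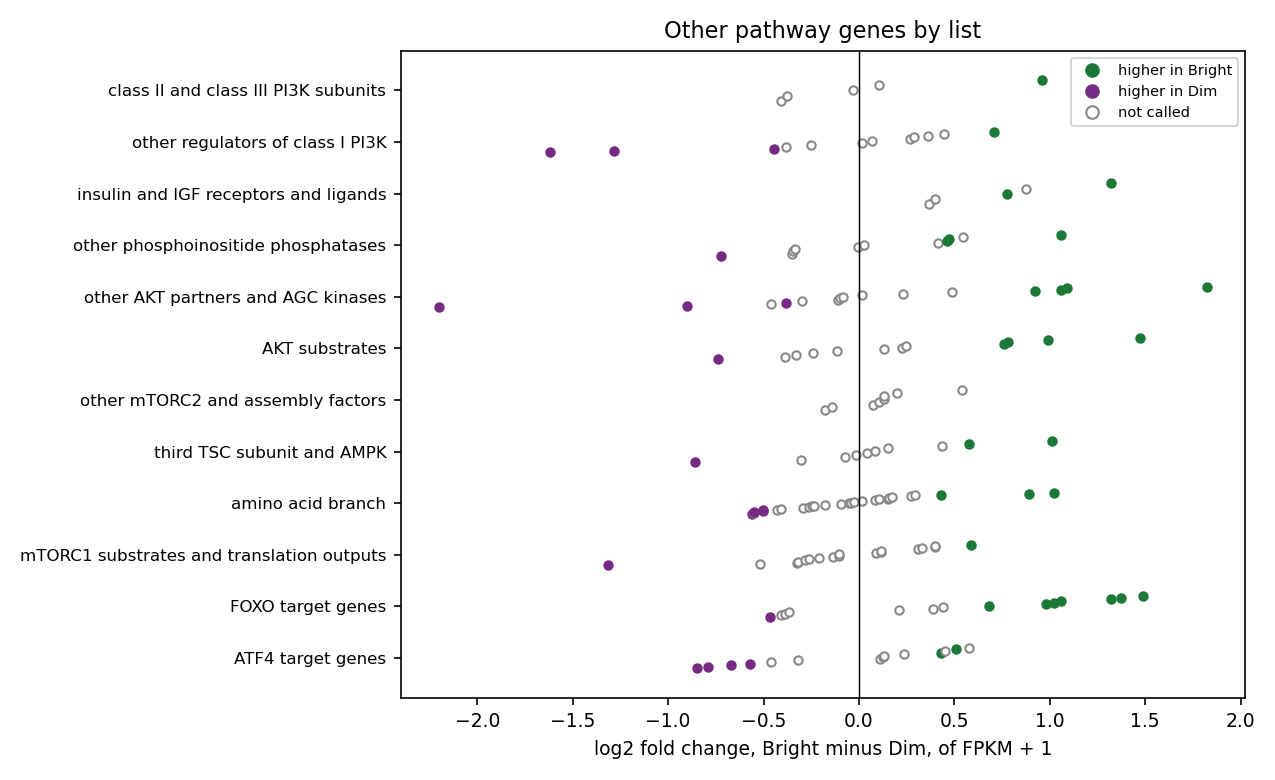
Log2 fold change, Bright minus Dim, of FPKM + 1 for the tested genes of the 12 lists of other pathway genes, a point per gene, filled where called. Called genes lie on both sides of 0 in most lists, and 7 of 14 FOXO target genes are called higher in Bright, beside 12% of all genes tested.

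The authors' deposited table of their own comparison called 5 members higher in Bright and 2 higher in Dim at q under 0.05, where it called 8.77% and 5.81% of the genes tested here, or 14.6% in all. In the authors' deposited table Tcl1, Irs2, Pik3cd, Inppl1, Akt1 and Phlpp1 each had q = 0.000921, and Rps6kb2 had q = 0.0220. In the authors' deposited table Pik3ca (log2 ratio 1.26, q = 0.0649) and Rheb (log2 ratio -0.62, q = 0.0838) were not called.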

How the data were processed

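Per the submitters' processing notes, reads were processed with TopHat2 2.1.1 and Cufflinks 2.2.1, with the build mm9 named and no parameters given. Libraries were primed with oligo d(T), per the labels' protocols. The authors deposited FPKM per gene and library, and a comparison table with pooled FPKM, a log2 ratio and p-values and q-values, whose test is not stated. Coordinates are as deposited: 24 of the 33 members match GENCODE M21 on GRCm38 exactly, so they are taken as GRCm38 although the notes name mm9. The 13416 genes that reached 1 FPKM in 3 or more libraries were tested as log2(FPKM + 1) in limma 3.58.1 (R 4.3.3), with trend and robust moderation and group as the term. Benjamini-Hochberg adjustment ran over all tested genes, with calls under 0.05. Fold changes on this scale understate those of low genes. FPKM are not counts, so no count test or counting interval was used, and depths are approximate. The procedure was tested on simulated data, with independent noise in each library sized from the Dim libraries. That setting had no library like Bright 3 and no effect shared by same-numbered libraries, so it does not give the error rate here. All members are named; other pathway genes were named as up to 4 called per list with the largest change, or the 2 most abundant where none was called. The members and lists were chosen with earlier results of these data known. Alternatives were other pseudocounts, filters, scalings and moderation, a replicate block, and each library left out. There were 0 unused per-sample columns, and 3 comparisons of single libraries were not used.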

Additional observations from a re-analysis of the deposited data

How the results depend on the processing

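All 9 calls among the members held without each library in turn, with 6 to 7 members higher in Bright and 3 in Dim, and under the other pseudocounts, scalings and moderation. They held with no filter, and with a filter of 5 FPKM except that Irs2 was then not tested. Some came close to the threshold of 0.05 in limma. Over the alternatives the highest adjusted p was 0.0491 for Rps6kb2, 0.0409 for Phlpp1 and 0.0386 for Irs2. Counts over the other pathway genes were less stable. With a library left out, 16 to 23 were higher in Bright and 11 to 15 in Dim, and with no filter 11 were higher in Dim. Over all genes, 1957 to 2603 were called with a library left out (1095 to 1418 for Bright, 849 to 1225 for Dim), with 1957 without Dim 2 and 1973 without Dim 3. Deviations from the group mean correlated across genes between same-numbered libraries at 0.435, 0.511 and -0.194 for numbers 1, 2 and 3. Bright 1 with Dim 2 was at -0.547, and Bright 2 with Dim 1 at -0.603. Bright 1 and Bright 2 correlated best with their own number, and Bright 3, where markers of other cells stood out, did not. The part of those cells in this was not tested. The labels do not say what a number shares, so the main fit took no pairs. Its p-values leave out any effect that same-numbered libraries share. With the replicate block 5453 of 13416 genes were called, 2607 for Bright and 2846 for Dim. With this block 9 members were higher in Bright and 8 in Dim, and 42 and 35 of the other pathway genes. Most of the 29 tested members were thus called with the block, unlike with group as the only term. The members gained were Akt2, Inpp5d and Rictor for Bright, and Akt1s1, Eif4ebp1, Pdpk1, Phlpp2 and Rps6kb1 for Dim.

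Some fold changes near 0 changed sign, and none of these was called. With a library left out, log2 fold changes ran from -0.118 to 0.132 for Pik3r3, -0.155 to 0.0334 for Mtor, -0.323 to 0.256 for Deptor, -0.0910 to 0.156 for Tsc1, -0.166 to 0.0248 for Eif4ebp2 and -0.0708 to 0.214 for Ruvbl1. Deptor was at 0.0212 under median scaling and Tsc1 at -0.0226 under quantile normalization. The share of Irs1 in the Irs pair differed by 1.17 percentage points, and by -2.54 with 0.1 FPKM added. The cause of these changes was not tested.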
